A study of Mus musculus with 2 samples.

Results

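Transcripts of 10 genes of the JAK and STAT cytokine pathway and of its feedback were followed in microglia, the resident macrophages of the brain, 24 h after LPS, a lipopolysaccharide of bacterial envelopes that sets off systemic inflammation, was injected into the peritoneum. The genes were taken from a fixed list of names: the kinases Jak1, Jak2, Jak3 and Tyk2, the transcription factor Stat3, the feedback inhibitors Socs3, Socs1 and Cish, and Bcl3 and Pim1, which cytokine signals induce. All 10 were found among the 19537 genes of the 2 count matrices. PARK7/DJ-1 KO mice, homozygous for a gene-trap allele of Park7 on a C57BL/6NCrl background, were compared with their wildtype (WT) littermates. Both groups received LPS, were 3 to 4 months old and gave CD11b+CD45int cells by flow sorting for Drop-seq, a droplet method that reads the 3′ end of each captured transcript and counts molecules by unique molecular identifiers (UMIs). Each genotype gave 1 library, made from 1 female and 1 male mouse together.

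With 1 library per group no test between the genotypes was possible, and genotype and library cannot be told apart. The 95% intervals given here are exact and cover counting error only. The libraries are labelled KO LPS and WT LPS, and what was counted in them is given for KO cells and WT cells. Levels are in CPM, which scales the counts of a gene to 1e6 counts of all genes in the cells of that library. A UMI from a 3′ end counts 1 molecule whatever the length of the transcript, so that levels of different genes are set side by side on this scale. How well each transcript was captured and assigned to its gene was not measured, so that an order among genes is one of counts only. Barcodes with at least 500 UMIs and 100 genes were taken as cells: 320 KO cells with 381305 UMIs in all, and 1427 WT cells with 1989011. The median depth was 963.5 UMIs per KO cell and 1065 per WT cell, and the libraries shared 0 cell barcodes. Park7 itself had 1 UMI in KO cells (2.62 CPM) and 323 in WT cells (162 CPM). All 8 microglia markers were detected in both libraries, with a summed level of 27049 CPM in KO cells and 18796 CPM in WT cells. Markers of other cells also differed. The 6 of 8 neutrophil markers that could be matched were all at 0 in KO cells and summed to 64.4 CPM in WT cells, where 3 were at 0. The 3 choroid plexus markers summed to 2103 CPM in KO cells, with a UMI in 20.3% of them, and to 13.6 CPM in WT cells. The other 7 marker lists summed to at most 102 CPM in either library.

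As background, a cytokine such as interleukin-6 brings its receptor chains together, and the Janus kinases bound to them phosphorylate the receptor and then a Stat protein. Phosphorylated Stat3 forms dimers that bind DNA and switch on target genes, among them Socs3. The Socs3 protein binds the receptor and its kinases and ends the signal, which makes Socs3 the classical negative feedback gene of this pathway in myeloid cells. Transcript counts do not show phosphorylation, so that Stat3 mRNA is a measure of how much Stat3 could be made and not of its activity.

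The letters that a Stat dimer is known to bind, TTCNNNGAA, read the same on both strands, and they were searched in RefSeq promoter windows of the build GRCm38.p6, which reach from 250 bases before to 50 bases after a start site. All 10 genes had a window, and Pim1 had 2. The motif stood in the windows of Socs3 and Cish and in none of the 9 windows of the other 8 genes. Of all 32851 promoter windows, 8.30% held at least 1 match and 0.457% held at least 2. Both stretches are shown because they belong to the feedback inhibitors, with the motif in capitals. That of Socs3 is the 250 bases before the start site (chr11:117969367-117969616, minus strand), where the match begins 154 bases upstream of the start site. That of Cish is the 30 bases from the start site onwards (chr9:107296659-107296688, plus strand), which hold 2 matches.
Socs3: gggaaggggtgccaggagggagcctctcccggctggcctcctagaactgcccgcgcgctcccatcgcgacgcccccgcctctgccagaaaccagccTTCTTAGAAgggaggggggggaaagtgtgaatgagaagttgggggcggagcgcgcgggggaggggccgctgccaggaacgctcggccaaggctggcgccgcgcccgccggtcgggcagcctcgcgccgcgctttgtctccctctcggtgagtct
Cish: TTCCTGGAAagTTCTTGGAAatctgtcaaa
A match is a description of these letters only. Binding was not measured, and Cish, with 2 matches, had 0 UMIs in KO cells and 2 UMIs in WT cells.

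**Figure D1:**
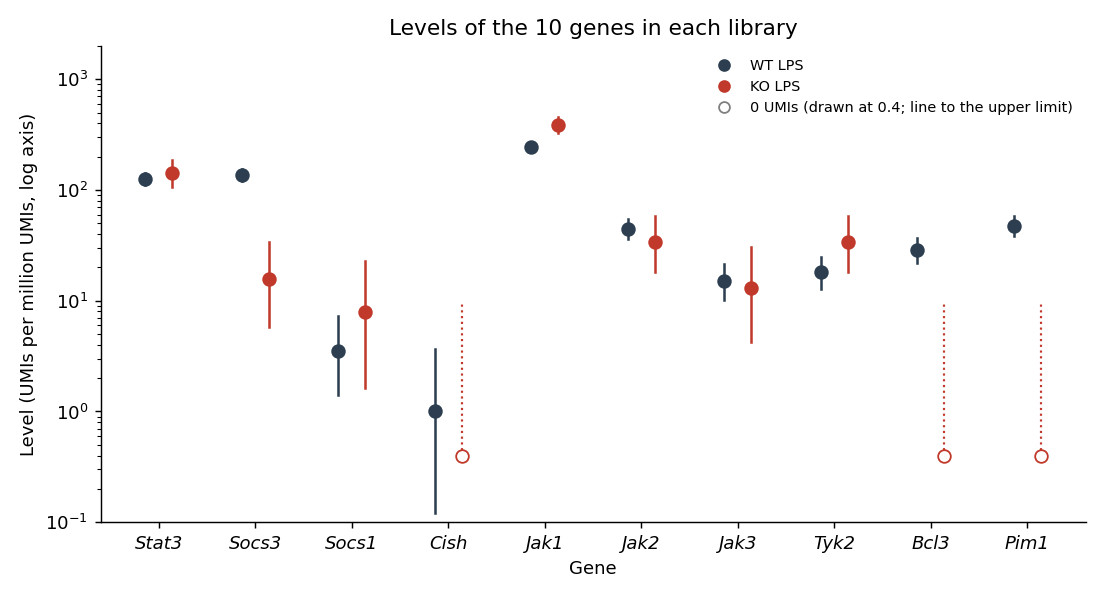
Level of each gene in WT cells (dark) and KO cells (red) in UMIs per 1e6 UMIs on a log axis. Points are the 1 library per genotype, lines exact 95% counting intervals, and open circles genes with 0 UMIs. Socs3, Bcl3 and Pim1 stand apart between the libraries, while the intervals of Stat3 overlap.

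In WT cells, Jak1, the kinase shared by the interleukin-6, interferon and interleukin-10 receptors, had the highest level of the 10 genes at 246 CPM (489 UMIs in 362 cells). Socs3 followed at 137 CPM (272 UMIs in 208 cells) and Stat3 at 127 CPM (252 UMIs in 216 cells), and the intervals of Socs3 and Stat3 overlapped. Pim1, at 47.3 CPM, and Jak2, at 44.7 CPM, did not differ beyond counting error either. Bcl3 came next with 28.7 CPM, then Tyk2 with 18.1 CPM and Jak3 with 15.1 CPM, whose intervals overlapped. Socs1 and Cish were close to undetected, with 7 and 2 UMIs in all 1427 cells. No WT cell held more than 4 UMIs of Socs3 or Stat3. Among KO cells the order was another one: Jak1 led with 388 CPM and Stat3 followed with 142 CPM, whereas Socs3, with 15.7 CPM, stood below Jak2 and Tyk2 at 34.1 CPM each. The latter rests on 6 UMIs against 13 and 13, and the intervals of Socs3 overlapped those of Jak2 and Tyk2.

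Transcripts of the feedback inhibitor Socs3 were scarce in KO cells. KO cells held 6 Socs3 UMIs, 1 in each of 6 cells, and WT cells held 272. The level in KO cells was 15.7 CPM (5.77 to 34.2) and that in WT cells 137 CPM (121 to 154), so that it was 8.69-fold lower in KO cells with an interval of 3.94 to 23.9-fold. Socs1, which inhibits the kinases directly, had 3 UMIs in KO cells and 7 in WT cells, and a ratio of KO over WT of 2.24 with an interval of 0.373 to 9.79. At this depth a difference in Socs1 or Cish was not detectable.

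Of the other genes that cytokine signals induce, Pim1, a serine/threonine kinase that promotes survival, had 0 UMIs in KO cells and 94 UMIs in 88 WT cells. Bcl3, an atypical IκB protein that acts with NF-κB dimers in the nucleus, had 0 UMIs in KO cells, for which the matrix lists no Bcl3 values, and 57 UMIs in 56 WT cells. Set against a floor of 3 counts in KO cells (7.87 CPM), the level in WT cells was 6.01-fold higher for Pim1 and 3.64-fold higher for Bcl3. The exact intervals allow smaller differences, down to 4.79-fold for Pim1 and 2.87-fold for Bcl3. Both genes therefore passed a filter of 20 UMIs over both libraries through WT cells alone.

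Stat3, the transcription factor upstream of these genes, did not differ beyond counting error. It had 54 UMIs in 46 KO cells and 252 UMIs in 216 WT cells, or 142 CPM (106 to 185) and 127 CPM (112 to 143). The ratio of KO over WT was 1.12, and its interval of 0.817 to 1.505 holds no difference as large as that of Socs3.

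Among the kinases, Jak1 was higher in KO cells, with 148 UMIs (388 CPM, 328 to 456) against 489 UMIs (246 CPM, 225 to 269) and a ratio of 1.58 (1.30 to 1.90). Jak2, which serves the receptors of interferon gamma and of colony-stimulating factors, had 13 and 89 UMIs and a ratio of 0.762 (0.390 to 1.37). Jak3, the partner of the common gamma chain, had 5 and 30 UMIs and a ratio of 0.869 (0.263 to 2.26). Tyk2, which works beside Jak1 at interferon and interleukin-10 receptors, had 13 and 36 UMIs and a ratio of 1.88 (0.917 to 3.64). The intervals of these 3 kinases hold both equal levels and differences as large as that of Jak1 or larger.

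Of the 8 genes that reached 20 UMIs in both libraries together, 3 were lower in KO cells with a counting interval below 1 (Socs3, Pim1 and Bcl3) and 1 was higher with an interval above 1 (Jak1). Over all 9085 genes with that many UMIs, 18.7% had an interval below 1 and 19.6% one above 1. The 3 lower genes had fewer than 20 UMIs in KO cells and reached the minimum through WT cells, so that the count is a description only. The same 3 genes were at least 2-fold lower, against 17.1% of all genes, and 0 of the 8 were at least 2-fold higher, against 12.9%. The median log2 ratio was -0.22 over the 8 genes and 0.03 over all genes. Jak2, Jak3, Tyk2 and Stat3 had intervals that hold 1.

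Socs3, Pim1 and Bcl3 were again lower and Jak1 higher beyond counting error in the 255 KO cells and 1350 WT cells without any UMI of the neutrophil and choroid plexus markers. There, Socs3 had 4 UMIs against 258 and a ratio of 0.105 (0.0283 to 0.271), and Jak1 had a ratio of 1.60 (1.29 to 1.98). By the exact intervals, Pim1, with 0 UMIs against 88, was at least 3.46-fold lower. Bcl3, with 0 against 54, was at least 2.10-fold lower, and both bounds are below those over all cells. The ratio of Stat3 was 1.11 (0.766 to 1.57).

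**Figure D2:**
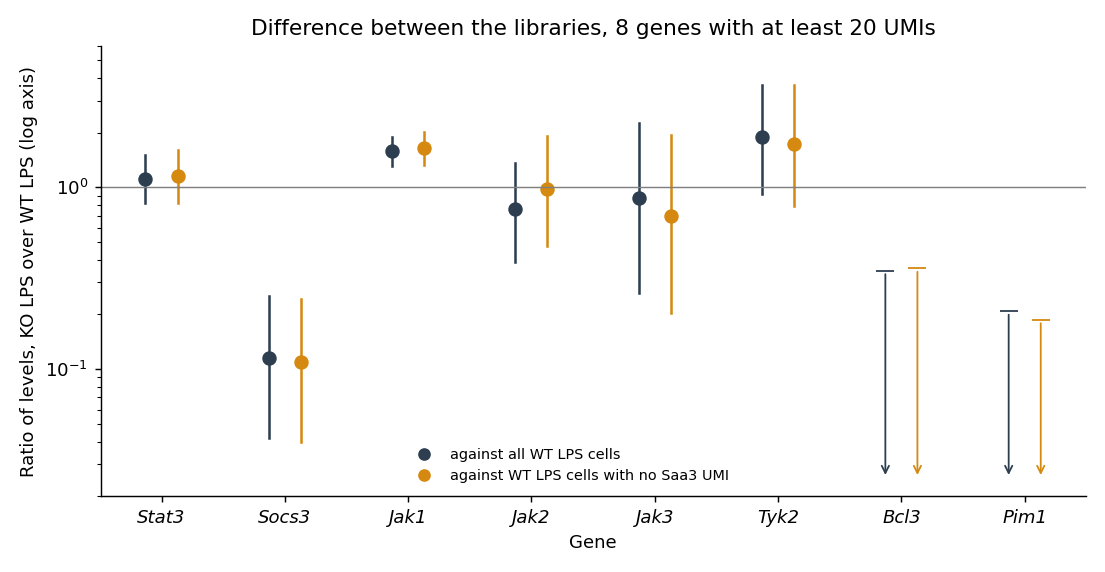
Ratio of levels, KO over WT, on a log axis for the 8 genes with at least 20 UMIs. Dark points compare with all WT cells and orange points with WT cells that had no Saa3 UMI, lines are exact 95% counting intervals, and arrows run down from the upper limit where KO cells had 0 UMIs. Socs3 lies at 0.115 and 0.1096, and Jak1 at 1.58 and 1.64.

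Saa3, an acute-phase serum amyloid gene that inflamed macrophages express, and Lcn2, which encodes the iron-binding lipocalin-2, are genes that LPS induces in macrophages. Saa3 had 0 UMIs in KO cells and 8367 in WT cells, and Lcn2, for which the KO matrix lists no values, had 0 and 885. When KO cells were compared only with the 844 WT cells without any Saa3 UMI, Socs3, Pim1 and Bcl3 were again lower and Jak1 higher beyond counting error. In those WT cells Socs3 stood at 143.5 CPM (121 to 169) and the ratio was 0.1096 (0.0396 to 0.244). By the exact intervals, Pim1 was at least 5.34-fold lower in KO cells and Bcl3 at least 2.78-fold lower. Jak1 had a ratio of 1.64 (1.33 to 2.02) and Stat3 one of 1.15 (0.822 to 1.60).

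The mice in each pool were separated as far as their transcripts allowed, by UMIs of Xist, which is transcribed from the inactive X chromosome of females, and of 4 Y-linked genes. Xist UMIs without any Y-linked UMI were found in 200 KO cells and 565 WT cells. In these, Socs3 had 6 UMIs against 97 and a ratio of 0.192 (0.0688 to 0.434). Pim1 had 0 against 39 UMIs, Bcl3 0 against 28, and Jak1 had a ratio of 1.58 (1.21 to 2.05). Stat3 had a ratio of 1.29 (0.886 to 1.85). Y-linked UMIs without Xist were found in 12 KO cells, with 14445 UMIs, and in 195 WT cells, so that the male mice could not be compared at this depth. Socs3 had 0 UMIs against 44 there, with an interval of the ratio up to 1.86, and Jak1 a ratio of 0.990 (0.264 to 2.63). The remaining 108 KO cells and 667 WT cells had UMIs of neither or of both. Among these Socs3 had 0 UMIs against 131 and an upper limit of the ratio of 0.234, Jak1 a ratio of 1.96 (1.43 to 2.65) and Stat3 one of 0.452 (0.162 to 1.02). Pim1 had 0 UMIs against 40 with an upper limit of 0.793, and Bcl3 0 against 25 with one of 1.30, which holds equal levels. Within WT cells, Socs3 was at 120 CPM (97.1 to 146) in the Xist group and 143 CPM (104 to 192) in the Y-linked group, and these intervals overlapped.

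**Figure D3:**
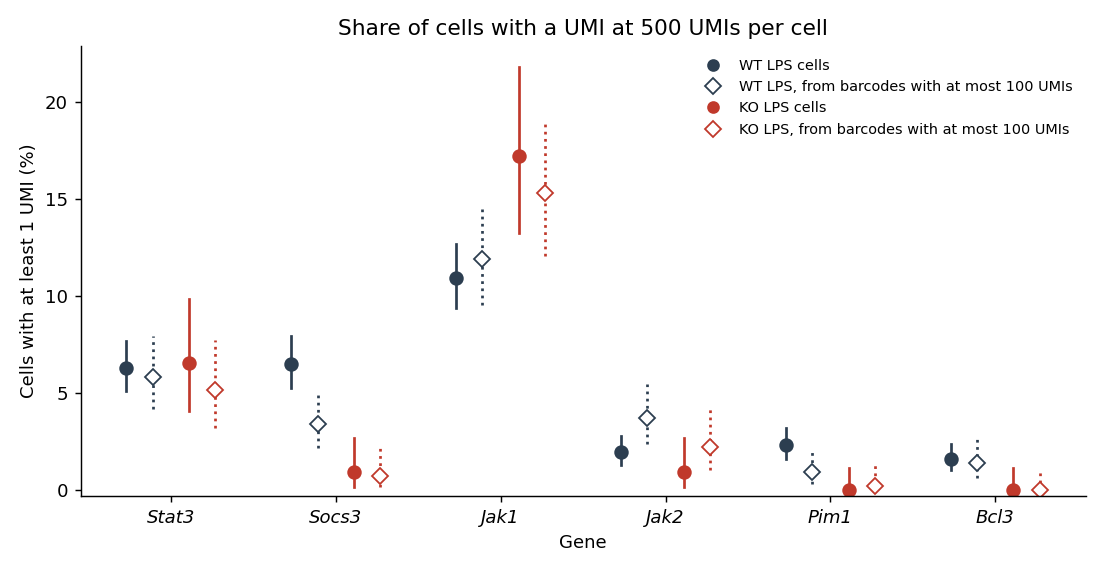
Percent of cells with at least 1 UMI of each gene after every cell was thinned to 500 UMIs (filled circles), beside the percent that 500 UMIs drawn only from barcodes with at most 100 UMIs would give (open diamonds), with exact 95% intervals. Socs3 in WT cells, at 6.52%, lies above its background of 3.42%, while the intervals of Stat3 and Jak1 overlap those of their backgrounds.

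Shares of cells were compared after each cell was thinned at random to 500 UMIs, and no cell was lost by this. The background was the share that would be seen if all 500 UMIs of a cell were free RNA of the same library, taken from barcodes with at most 100 UMIs. A share not above it does not show that cells lacked the transcript: Saa3, in 29.4% of WT cells, was below its background of 48.3%. Socs3 was found in 6.52% of WT cells (5.29 to 7.92), above the 3.42% (2.16 to 5.14) that free RNA would give, and without thinning in 14.6%. It was found in 3 of 320 KO cells, or 0.938% (0.194 to 2.72), with a background of 0.752%, and the KO share did not differ from this background beyond counting error. Pim1 was found in 2.31% of WT cells (1.60 to 3.23) with a background of 0.946% (0.348 to 2.05). It was found in 0 of 320 KO cells, which by a limit of 3 counts allows a share of cells with a Pim1 UMI of up to 0.938%, and by the exact interval one of up to 1.15%. Bcl3 was found in 1.61% of WT cells with a background of 1.42%, so that its share was not above background at this depth, and in 0 of 320 KO cells.

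For Stat3 and Jak1, shares in cells and in free RNA lay close together. Stat3 was found in 6.56% of KO cells and 6.31% of WT cells, with backgrounds of 5.15% and 5.84%. Jak1 was found in 17.2% (13.2 to 21.8) and 10.9% (9.36 to 12.7), with backgrounds of 15.3% and 11.9%. Their shares in cells did not differ from those of free RNA beyond counting error, and Jak1 stood at 332 CPM (257 to 423) in the free RNA of the KO library and 253 CPM (201 to 315) in that of the WT library, with overlapping intervals. Free RNA of sorted cells can come from the same cells, and how much of the Jak1 counts in cells was free RNA was not tested. The other kinases were found in few cells: in WT cells Jak2 had a share of 1.96% with a background of 3.73%, and Jak3 one of 0.841% with a background of 0.158%. Socs3 stood at 15.1 CPM (3.11 to 44.1) in the free RNA of the KO library and 69.7 CPM (43.7 to 105) in that of the WT library, and these intervals overlapped slightly. All shares are bound to depth. At 1000 UMIs per cell, Socs3 was found in 2.70% of the 148 KO cells and 11.04% of the 770 WT cells that were deep enough.

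**Figure D4:**
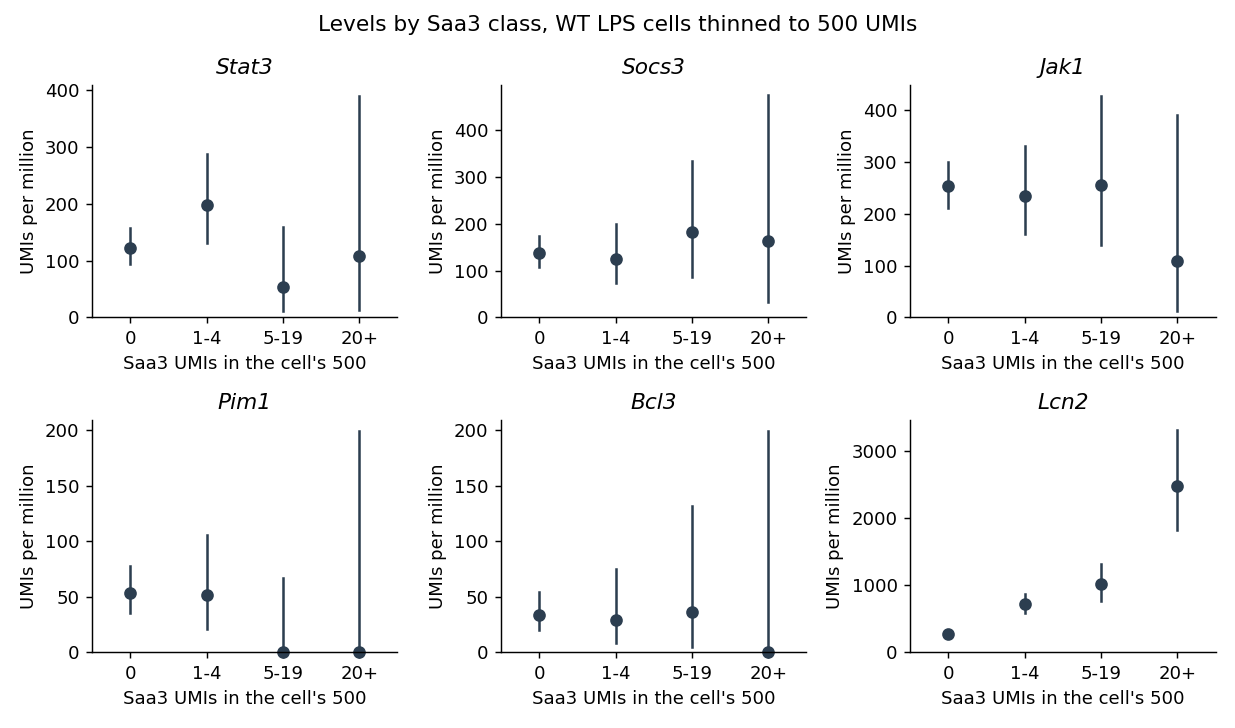
Level in UMIs per 1e6 UMIs in WT cells thinned to 500 UMIs and grouped by their Saa3 UMIs (0, 1 to 4, 5 to 19, 20 or more; 1007, 273, 110 and 37 cells), with exact 95% counting intervals. Lcn2 is higher in each class than in the one before, while for Stat3, Socs3, Jak1, Pim1 and Bcl3 the intervals of the outer classes overlap.

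WT cells differed widely in Saa3, and it was asked whether the pathway genes went with it from cell to cell. At 500 UMIs per cell, 1007 cells had no Saa3 UMI, 273 had 1 to 4, 110 had 5 to 19 and 37 had 20 or more. None of the 10 genes differed beyond counting error between the 147 cells with 5 or more and the 1007 cells with 0. Lcn2, used as a reference, was at 1388 CPM against 278 CPM in the same classes, a ratio of 4.99 (3.83 to 6.49). Over all 5772 genes with at least 20 thinned UMIs, 3.43% had an interval above 1 and 3.05% one below 1. Of the 6 pathway genes with that many, 0 had a ratio at least 1.5-fold higher, against 15.4% of all genes. The measured ratio was at least 1.5-fold lower for 2, Stat3 and Pim1, and for 28.2% of all genes, with genes at 0 UMIs in the cells with 5 or more counted as lower in both. Pim1 was such a gene, and a floor of 3 counts gives no 1.5-fold bound for it.

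Socs3 had 69 UMIs in the cells without Saa3 (137 CPM) and 13 in those with 5 or more (177 CPM), and the ratio of 1.29 had an interval of 0.654 to 2.36. From the lowest to the highest class it stood at 137, 125, 182 and 162 CPM. Read the other way, 29.0% of the 93 cells with a Socs3 UMI also had a Saa3 UMI, against 29.5% of the 1334 cells without one. Free RNA alone would give a Saa3 UMI in 48.3% (45.0 to 51.6) of such cells, so that a single Saa3 UMI does not show that a cell expressed it. Stat3 had 62 and 5 UMIs (123 and 68.0 CPM) and a ratio of 0.552 (0.173 to 1.36). Another random draw of the 500 UMIs gave 0.339 for Stat3 with an interval of 0.0900 to 0.906, which no longer holds 1, while all UMIs of the same cells gave 0.825 (0.523 to 1.25). The Stat3 ratio was therefore not settled by these counts.

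Jak1 stood at 252 CPM in the cells without Saa3 and 218 CPM in those with 5 or more, a ratio of 0.863 (0.479 to 1.46). Pim1 had 27 UMIs in the former and 0 in the latter, with an upper limit of the ratio of 1.003. This 0 depends on the random draw: another draw gave a ratio of 0.221 (0.00540 to 1.34), and all UMIs of the same cells gave 0.552 (0.214 to 1.202). Bcl3 had 17 and 2 UMIs and a ratio of 0.806 (0.0903 to 3.40). Spearman's rho with Saa3 over the 1427 cells was 0.002 for Socs3, 0.013 for Stat3 and -0.009 for Jak1, against 0.21 for Lcn2. Microglia markers summed to 18381 CPM in the cells with 5 or more Saa3 UMIs and 18785 CPM in those without, and neutrophil markers to 68.0 and 77.5 CPM. Border macrophage markers summed to 109 CPM (8 UMIs, 47.0 to 214) and 39.7 CPM (20 UMIs, 24.3 to 61.3), and astrocyte markers to 0 and 35.7 CPM. The part of these cells in the result was not tested. All these cells share 1 library, 1 depth and 2 mice, so that rho is a description only, and with so few UMIs per cell a weak relation would not be seen.

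The pathway genes were also set against each other in WT cells. Socs3 and Stat3 were found together in 6 cells, and the product of their shares gives 5.87. Socs3 and Jak1 were found together in 9 cells, where the product gives 10.2. In each of the 15 pairs among Socs3, Stat3, Jak1, Jak2, Pim1 and Bcl3, the product lay within the counting interval of the cells observed. Among 581 genes with at least 200 thinned UMIs, no gene reached a rho of 0.1 with Socs3 or Stat3 over the 1427 cells.

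**Figure D5:**
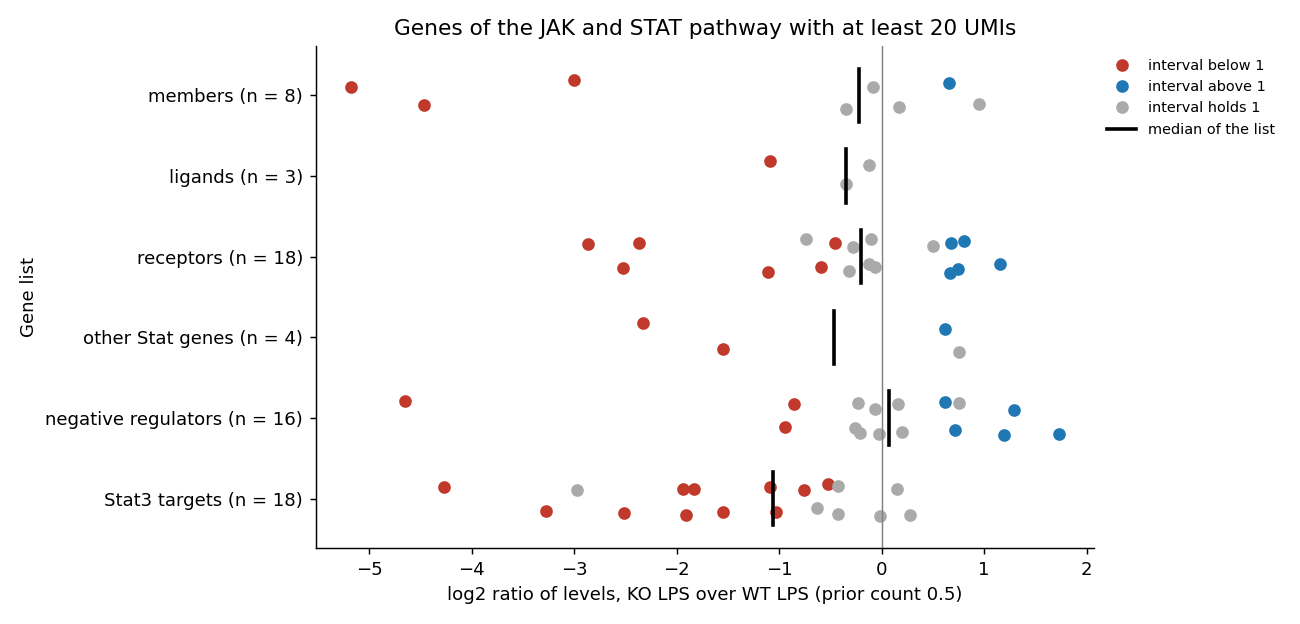
The log2 ratio of levels, KO over WT, for genes with at least 20 UMIs in the 10-gene list and 5 lists of the pathway, coloured by whether the 95% counting interval of the ratio lies below 1 (red), above 1 (blue) or holds 1 (grey). Black bars are list medians, from -1.06 for Stat3 targets to 0.07 for negative regulators.

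The rest of the pathway was described with 5 lists of genes, read beside the percentages of all genes given above. Of the ligands, 6 of 11 genes could be matched to a row and 3 reached 20 UMIs. All 3 had fewer than 20 UMIs in KO cells and reached the minimum through WT cells. Csf1, the growth factor of microglia, was lower in KO cells with 21.0 CPM (8 UMIs) against 47.3 CPM and a ratio of 0.444 (0.186 to 0.911). Its own receptor is not on the receptor list, so that Csf1 is not read here as a signal through the Janus kinases. Il27 had 5 and 36 UMIs and Osm, a relative of interleukin-6, 4 and 25, with intervals that hold 1. Il6, singled out after its values were seen, stayed under the filter with 9 UMIs in KO cells and 8 in WT cells (23.6 and 4.02 CPM), and its ratio was 5.87 (2.01 to 17.5).

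Of 18 receptor genes with at least 20 UMIs, 6 were lower and 5 higher in KO cells, and the median log2 ratio was -0.20. Of the 6 lower genes, 3 had fewer than 20 UMIs in KO cells and reached the minimum through WT cells, so that the count is a description only. Il15ra, with 15 UMIs in KO cells, was 1 of them. Il6ra, the receptor of interleukin-6, was higher with 635 CPM against 379 CPM (ratio 1.68, 1.44 to 1.94). Its signalling partner Il6st (gp130) and the interleukin-10 receptor Il10ra, both named after their values were seen, were higher too, with ratios of 1.58 (1.18 to 2.09) and 1.74 (1.31 to 2.28). Csf3r, the receptor of granulocyte colony-stimulating factor, had the highest ratio of this list, 2.23 (1.84 to 2.68). In the other direction, Il15ra had the lowest, with 39.3 CPM against 296 CPM (ratio 0.133, 0.0739 to 0.221). Csf2ra, which binds granulocyte-macrophage colony-stimulating factor, was also lower, with 68.2 CPM against 359 CPM (ratio 0.190, 0.123 to 0.281). Ifngr1, the receptor gene with the most UMIs, did not differ beyond counting error, with 900 CPM against 982 CPM (ratio 0.916, 0.814 to 1.03).

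Among the other Stat genes, Stat2, which carries type I interferon signals, was lower in KO cells, with 8 UMIs against 223 and a ratio of 0.187 (0.0798 to 0.375). Stat2 reached the minimum of 20 UMIs through WT cells, so that its place among the lower genes is a description only. Stat6, which serves interleukin-4, was higher at 1.52 (1.09 to 2.09), and Stat5b had a ratio of 1.63 (0.715 to 3.40). These Stat genes thus differed in both directions, and the ratio of Stat3 lay between those of Stat2 and Stat6.

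Of 16 other negative regulators, 3 were lower and 5 higher, with a median log2 ratio of 0.07, while the summed level of the list had a ratio of 0.863 (0.797 to 0.934). Usp18, an inhibitor of the interferon receptor that interferon itself induces, had 0 UMIs in KO cells and 65 in WT cells. It was at least 3.28-fold lower by its exact interval, having reached the minimum of 20 UMIs through WT cells alone. The phosphatases Ptpn1 and Ptpn6, which remove phosphate from this pathway's kinases and receptors, were lower with ratios of 0.550 (0.451 to 0.665) and 0.517 (0.399 to 0.661). Ptprc, which encodes CD45, the protein used in the sort, did not differ beyond counting error (ratio 0.954, 0.830 to 1.09). Pias3, an inhibitor of Stat3, had the highest ratio, 3.26 (1.32 to 7.64), on 10 and 16 UMIs.

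Of 18 genes known as Stat3 targets with at least 20 UMIs, 11 were lower in KO cells and 0 higher, where 18.7% and 19.6% of all genes were, and the median log2 ratio was -1.06, or -0.90 with genes at 0 UMIs set to their bound. Of these 11, 7 had fewer than 20 UMIs in KO cells and reached the minimum through WT cells, so that count and median are descriptions only. Cebpb, a transcription factor of the acute-phase response, was lower with 147 CPM against 557 CPM (ratio 0.264, 0.198 to 0.345). Mcl1, which keeps myeloid cells alive, had a ratio of 0.487 (0.374 to 0.624) and Junb one of 0.586 (0.458 to 0.742). Lrg1, for which the KO matrix lists no values, had 0 UMIs against 50 and was at least 2.50-fold lower by its exact interval. Fos had the highest ratio of the list and did not differ beyond counting error (ratio 1.201, 0.821 to 1.72). As background, Cebpb, Mcl1 and Junb also respond to other LPS signals than Stat3.

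Within WT cells, 0 genes of the 5 lists were higher in the cells with 5 or more Saa3 UMIs than in those with 0 beyond counting error. The lists held 1 ligand, 18 receptors, 3 other Stat genes, 12 negative regulators and 13 Stat3 targets with at least 20 thinned UMIs. Over all genes, 3.43% had an interval above 1 and 3.05% one below 1, so that a count of 0 does not set these lists apart. Csf3r was lower there with a ratio of 0.395 (0.142 to 0.890), as was Junb with 0.545 (0.292 to 0.939), the latter named after its values were seen.

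All 10 genes overlap an exon of another gene in the GENCODE vM39 annotation, 10 of them a gene on the opposite strand, such as Stat5a for Stat3 and Raver2 for Jak1. Jak3 also overlaps Insl3 on its own strand. Whether counting used the strand was not given in the sources used here, and reads of such pairs could not be told apart without it.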

How the data were processed

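The members and gene lists were chosen with earlier results of these data known. For each library the authors deposited a matrix of raw counts (UMIs of each gene under each barcode) that was not filtered to cells: of 9999 barcodes per library, 676 (KO) and 3618 (WT) had at least 100 genes. The submitters' processing notes name bcl2fastq 2.0, STAR, mm9 and mm10 without their roles; counting program and annotation were not given in the sources used here. Missing values were read as 0. Columns were assigned to libraries by their names, and 0 were left unmatched.

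Cells had at least 500 UMIs and 100 genes. Doublets were left in. Counts were summed over cells, with Poisson intervals for levels, conditional binomial intervals for ratios and Clopper-Pearson intervals for shares, all exact and at 95%. The log2 ratio used a prior count of 0.5, and genes at 0 UMIs a floor of 3 counts per library. No p-values were computed: the MAST test of the study treats cells as replicates. Thinning drew 500 UMIs per cell without replacement.

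Named were all 10 members, Saa3, Lcn2 and Park7, and of each list the 3 genes with most UMIs and the highest and lowest log2 ratio; list genes 2-fold apart between Saa3 classes could be named. Not every gene so picked is described, and 1 is not reported here. Alternatives changed the cell filter, scaling, prior count, low-count filter, thinning and Saa3 classes. The calculations were tested on simulated data with Python 3.11.15 and scipy 1.17.1 (matplotlib 3.10.9 for plots).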

Additional observations from a re-analysis of the deposited data

Results flagged for a closer look

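Barcodes with more than 100 and fewer than 500 UMIs are not among the cells that the comparisons used, and entered in part only an alternative with no UMI minimum. In the 443 such barcodes of the KO library, Jak1 stood at 439 CPM (46 UMIs), above the 235 CPM (178 UMIs) of the 4302 such barcodes of the WT library, with a ratio of 1.87 (1.32 to 2.60). It was listed because this signal lies outside those cells. Socs3 had 2 UMIs against 56 in the same barcodes, and its ratio was 0.259 (0.0306 to 0.980).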

How the results depend on the processing

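No paired analysis was possible because each genotype had 1 library, and for the same reason no replicate could be left out. The count of 3 lower members was 3 under 13 of the 14 alternatives that gave it. The mean of single-cell CPM values has no counting interval and gave none. Some of the 13 could not change the count. The prior count does not enter the intervals, and filters of 5 or 50 UMIs per gene drop none of the 3 genes. All 3 had also reached the minimum of 20 UMIs through WT cells. Among cells that held Y-linked but not Xist UMIs (12 KO cells) the count was 0, the log2 ratio of Bcl3 turned to 1.24 with 0 UMIs against 4, and that of Park7 was -2.19, on 14445 KO UMIs in all. Of 130 alternative ratios between the libraries, 124 moved by less than the counting interval, 5 by more and 1 reversed; of 72 between Saa3 classes, 68 moved by less and 4 by more. Of 60 shares, 23 moved by more than their interval, all at another depth per cell. The median of the 3 ligands, -0.35, was not stable: 0.015 with at least 1000 UMIs per cell, -0.080 with no UMI minimum, -0.21 without the 5% of cells with most UMIs, -1.11 in Xist cells, -1.09 with at least 50 UMIs per gene (where Csf1 alone remained), -0.84 against WT cells without Saa3 and 0.064 in cells without neutrophil or choroid plexus markers. The last 2 settings were chosen after seeing the data, as was the split of the Saa3 classes at the median depth. The median of the other Stat genes was -0.47 and fell to -1.90 in Xist cells; it was also lower with at least 50 UMIs per gene, a value not given here. Causes were not tested.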
